A study of Drosophila melanogaster with 20 samples.

Results

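The cytosolic ribosomal proteins are the protein components of the ribosomes that translate nuclear messages, and 41 of their genes were followed across the brains of miR-34 null and wild-type flies at 20 d and 3 d. A gene was taken where a probe set carried exactly 1 gene symbol and that symbol began with RpL (large subunit) or RpS (small subunit) followed by a digit or P. Each gene was represented by its probe set of highest mean signal over the 20 arrays, which gave 25 RpL and 16 RpS genes with 47 probe sets, of 13647 probe sets with 1 symbol in the series. By the same rule a RefSeq gene table (Release 6 plus ISO1 MT) holds 92 such genes, and those with no probe set of their own were not analysed here.

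Total RNA from dissected Drosophila melanogaster brains was hybridised to Affymetrix Drosophila 2 arrays, with 5 arrays in each of 4 groups. The groups were miR-34 null flies (titles 0110) at 20 d, wild-type flies (titles 5905) at 20 d, miR-34 null flies at 3 d and wild-type flies at 3 d, all raised on standard medium and aged naturally. The labels give no sex, no allele of the null and no shared background of the lines, and they do not say whether repeats came from separate flies, so p-values here measure the spread between these samples. No named probe set reads mir-34, and the loss of that gene was therefore not measured here.

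A ribosome joins a small subunit, which reads the message, to a large subunit, which forms the peptide bond, and each subunit is built on ribosomal RNA in the nucleolus with the help of assembly factors. Ribosomal protein messages are among the most abundant in most cells, and their output is tied to growth signalling through Tor. Some fly ribosomal proteins have a second gene copy, and several of those copies are known for expression in the germ line.

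Signals are the intensities as deposited, treated here as MAS5 output, and every array has the same trimmed mean of 150. Differences were tested on log2(signal + 16) with limma over all 20 arrays, and a probe set was called where it had a Benjamini-Hochberg adjusted p under 0.05 over the 9806 probe sets that lay above their array's median on at least 5 arrays. Of the 41 genes, 35 passed that filter and 33 lay above the median on all 20 arrays. Among these 33, 30 genes have symbols that do not end in -like, and they are called the structural genes below. Glial and neuronal markers were bright in every group, as summed signals of 7 glial probe sets of 7340 to 9250 and of 5 neuronal probe sets of 2730 to 4150 show. Sums for 6 midgut markers were 2090 to 2190 in 3 d nulls, against 137 to 151 in 3 d wild type. Photoreceptor markers summed to 751 to 816 in 20 d nulls against 2000 to 2210 in 20 d wild type. The part of these tissues in the ribosomal protein values was not tested. In bulk samples, fewer cells of a type and less RNA per cell cannot be told apart.

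Between genotypes the structural ribosomal protein genes showed little difference at either age. None of the 30 was called in nulls against wild type at 20 d or at 3 d, while 45.5% of all probe sets tested were called at 20 d and 33.8% at 3 d. Over these 30 genes the median log2 difference was 0.022 at 20 d and 0.019 at 3 d, and over all probe sets it was -0.009 and -0.011. Taken gene by gene on the probe set used, every 95% interval of the difference lay between -0.26 and 0.26 at 20 d. At 3 d every interval lay between -0.21 and 0.31. These are separate intervals of signals as deposited and not a joint bound. A second probe set of RpL3 lay outside them at 20 d, at 0.71. Single values ran over -0.11 to 0.10 at 20 d and over -0.07 to 0.15 at 3 d. Under quantile normalization 3 of the 30 were called higher in nulls at 20 d (RpL15, RpLP1 and RpS18), and at 3 d RpLP1 and RpS21 were called higher and RpS12 lower, against 47.1% and 33.7% of all probe sets called. A scaling that centred each array on the 300 brightest other probe sets was added after the data were seen. It called RpLP1 higher in nulls at 20 d, and RpS21 higher and RpS12 lower at 3 d, against 35.8% and 24.0% of all probe sets.

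**Figure D1:**
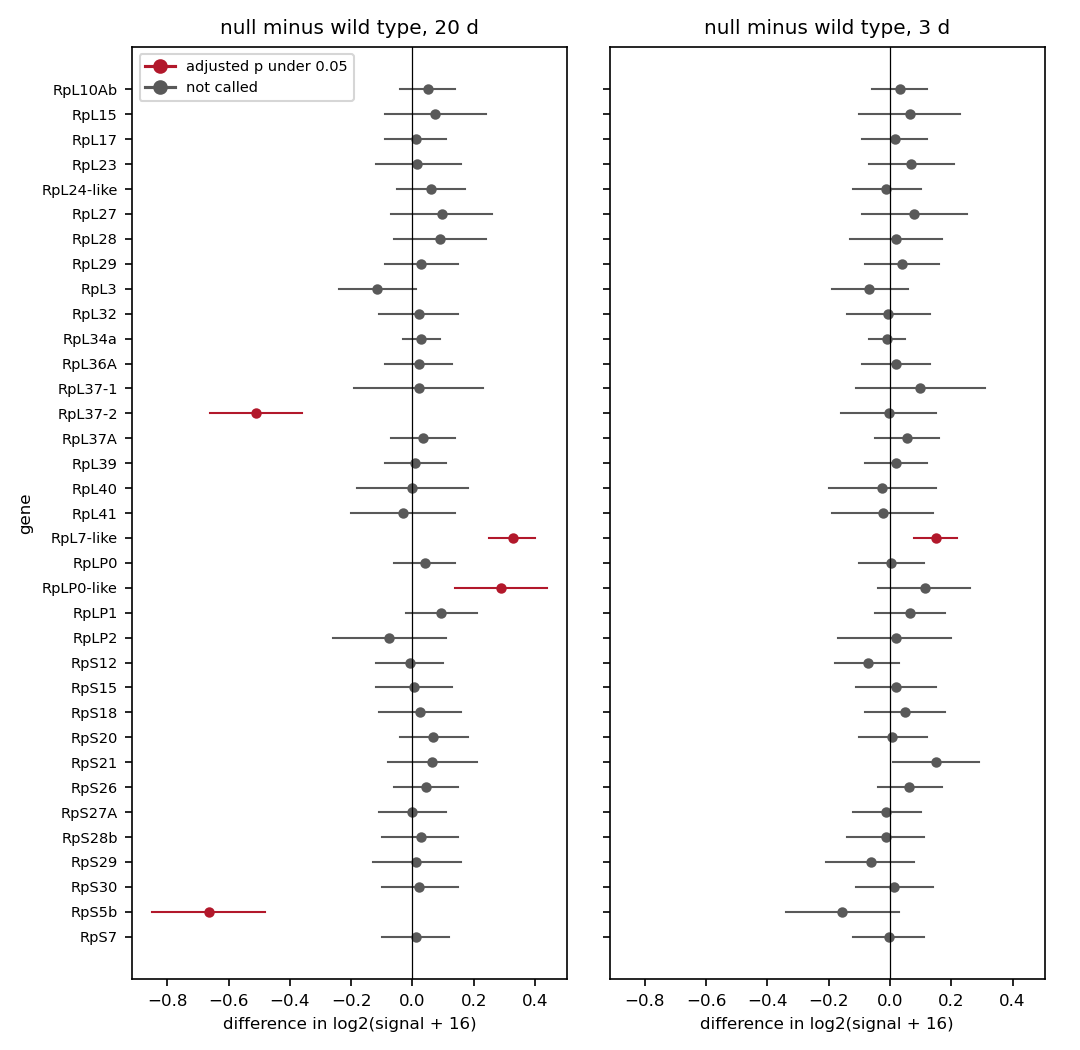
Difference in log2(signal + 16) between null and wild-type brains at 20 d (left) and 3 d (right) for the 35 genes tested; points are limma estimates from 5 arrays a group, bars their 95% intervals, and red marks an adjusted p under 0.05. The structural genes lie close to 0 at both ages, and the red points are RpL7-like, RpLP0-like, RpL37-2 and RpS5b at 20 d and RpL7-like at 3 d.

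The large subunit was represented by 19 of these genes. RpL32, also called rp49 and widely used as a reference gene in fly quantitative PCR, had signals of 2510, 2100, 2040, 2130 and 1820 in 20 d nulls, against 2260, 2080, 1890, 2060 and 2100 in 20 d wild type. In 3 d nulls RpL32 had 2300, 2300, 2120, 2170 and 1920, against 2110, 2120, 2200, 2210 and 2190 in 3 d wild type. The groups overlapped at both ages, and its log2 difference was 0.02 ± 0.064 (SE) at 20 d, with a 95% interval of -0.11 to 0.15, and 0.00 ± 0.064 at 3 d, with an interval of -0.14 to 0.13. The narrowest interval of the 30 belonged to RpL34a, with signals of 947, 868, 865, 881 and 876 in 20 d nulls and 894, 856, 865, 865 and 867 in 20 d wild type. Its difference of 0.03 ± 0.030 had an interval of -0.03 to 0.09, while the widest of the 30 belonged to RpL37-1, with signals of 1520 to 2260 in 20 d nulls, 1620 to 2020 in 20 d wild type, 1610 to 2250 in 3 d nulls and 1570 to 2040 in 3 d wild type.

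The acidic stalk of the large subunit, which recruits translation factors, is built from RpLP0 with RpLP1 and RpLP2. RpLP0 averaged 1450 ± 97.5 in 20 d nulls and 1410 ± 73.9 in 20 d wild type (SD, n = 5 each), a log2 difference of 0.04 ± 0.049. RpLP1 averaged 2060 ± 193 in 20 d nulls and 1920 ± 86.8 in 20 d wild type, a difference of 0.09 ± 0.056 (adjusted p = 0.179, limma). With quantile normalization the RpLP1 difference was also 0.09, with an adjusted p of 0.00045; the median SE over the 35 genes was 0.03 there, against 0.06 as deposited. RpLP2 averaged 2130 ± 292 in 20 d nulls and 2230 ± 212 in 20 d wild type, and as deposited none of the 3 stalk genes was called for genotype at either age.

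The 11 small-subunit genes gave the same picture, with a median log2 difference of 0.022 at 20 d and 0.007 at 3 d. RpS21 had signals of 1880, 1880, 1690, 1750 and 1480 in 3 d nulls, against 1570, 1470, 1590, 1590 and 1560 in 3 d wild type. Of these, 4 of the 5 null arrays lay above every wild-type array and repeat 5 lay within the wild-type range. The difference of 0.15 ± 0.068 had an adjusted p of 0.096, and RpS21 was called without repeat 5 of the 3 d nulls or without repeat 1 of the 20 d nulls. RpS12, known in flies for its part in the competition between normal cells and cells short of ribosomal proteins, averaged 1930 ± 144 in 3 d nulls and 2020 ± 28 in 3 d wild type. Its log2 difference was -0.07 ± 0.052 (adjusted p = 0.305), against -0.09 with an adjusted p of 0.00147 under quantile normalization. RpS7, RpS15 and RpS20 had differences within 0.07 of 0 at both ages.

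RpL40, RpS27A and RpS30 make their proteins as a fusion with ubiquitin or a ubiquitin-like protein. RpS27A averaged 1940 ± 177 in 20 d nulls and 1940 ± 78.1 in 20 d wild type, and 2170 ± 125 in 3 d nulls against 2180 ± 90.9 in 3 d wild type. RpL40 averaged 1860 ± 287 in 20 d nulls and 1850 ± 134 in 20 d wild type. RpS30 averaged 1780 ± 186 and 1750 ± 94.1 in the same groups, and none of these 3 genes was called for genotype at either age.

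What spread there was ran across the ribosomal proteins as a block. In repeat 1 of the 20 d nulls 28 of the 30 structural genes had the highest signal of their group, and in repeat 5 of the 3 d nulls 27 of 30 had the lowest. The mean log2 signal of the 30 genes was 10.704 to 11.006 over the 20 d null arrays, 10.684 to 10.887 in 20 d wild type, 10.702 to 10.967 in 3 d nulls and 10.825 to 10.890 in 3 d wild type. The 300 brightest other probe sets moved with it, at 10.544 to 10.751, 10.509 to 10.633, 10.618 to 10.847 and 10.736 to 10.770 in the same order of groups. Within a group the coefficient of variation of a structural gene was 6.56% at the median and ran over 1.04% to 16.3%.

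**Figure D2:**
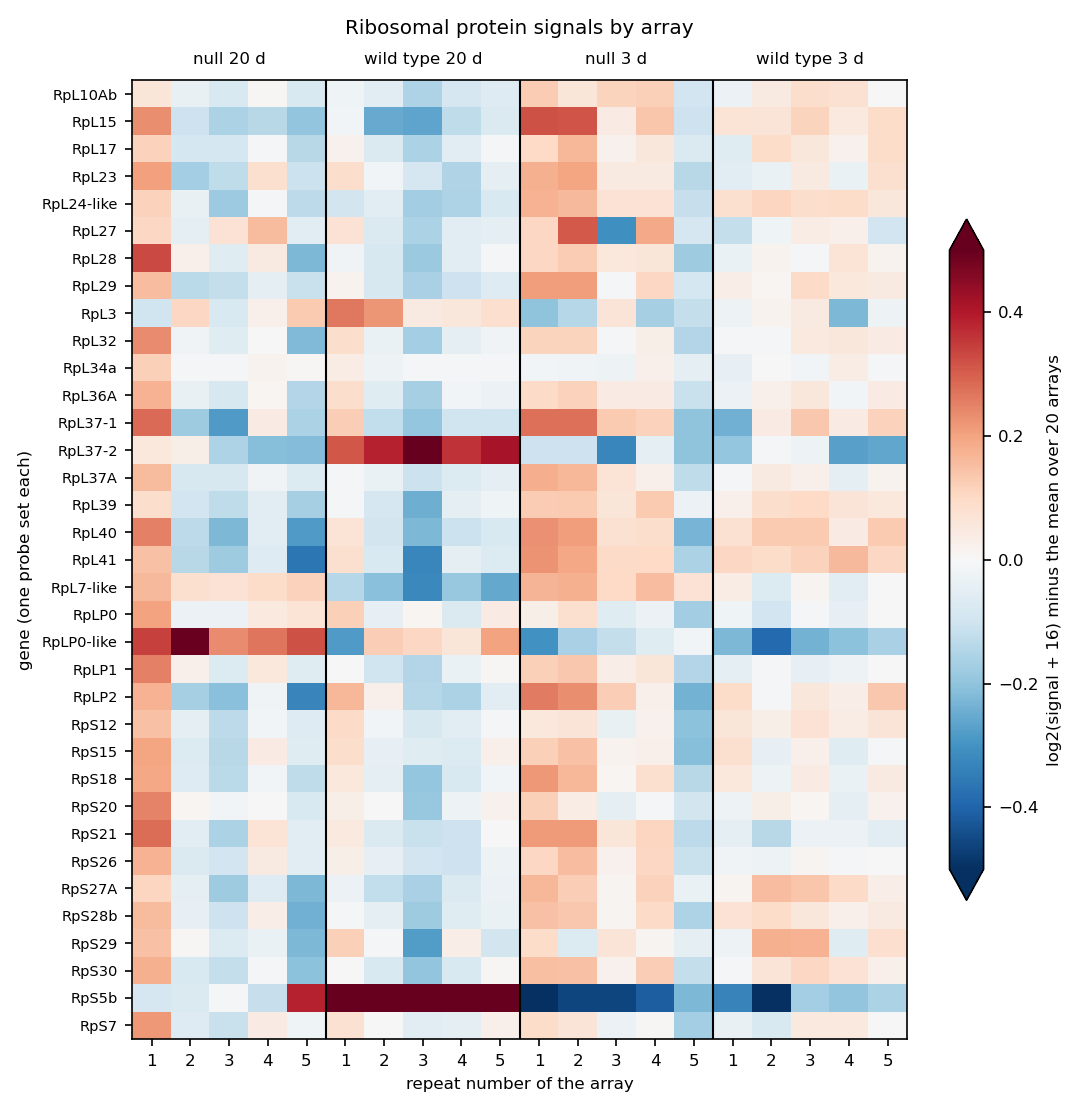
Log2(signal + 16) of each of the 35 genes on each of the 20 arrays, minus the gene's mean over all arrays; columns are repeats 1 to 5 of each group, and colours are held at 0.5 in either direction. Nearly every structural gene is high in repeat 1 of the 20 d nulls and low in repeat 5 of the 3 d nulls, while RpL7-like, RpLP0-like, RpL37-2 and RpS5b follow the groups.

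As deposited, the genes called between genotypes lay outside the 30 structural ones. In nulls at 20 d, 2 of the 35 genes tested were called higher and 2 lower, against 20.9% and 24.6% of all probe sets. Among the 2 lower, RpL37-2 passed the filter through the 20 d wild-type arrays alone and is no evidence in that count. At 3 d, 1 was called higher and 0 lower, against 15.4% and 18.4%. RpL7-like, RpLP0-like and RpL24-like are the fly homologues of the budding yeast factors Rlp7, Mrt4 and Rlp24, which act in the assembly of the large subunit and are no part of the finished ribosome.

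RpL7-like had signals of 923, 872, 868, 880 and 894 in 20 d nulls, against 746, 711, 656, 721 and 687 in 20 d wild type. In 3 d nulls it had 930, 934, 883, 918 and 867, against 846, 786, 831, 791 and 825 in 3 d wild type. Every null array lay above every wild-type array of its age. The log2 difference was 0.33 ± 0.036 at 20 d (adjusted p = 5.02e-08, limma with Benjamini-Hochberg), a fold of 1.25. At 3 d it was 0.15 ± 0.036 (adjusted p = 0.00196), a fold of 1.11. At both ages the call was the same under every scaling, pseudocount and left-out array tried.

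RpLP0-like had signals of 315, 352, 292, 299 and 310 in 20 d nulls, against 199, 269, 265, 257 and 285 in 20 d wild type. All 5 null arrays lay above the highest wild-type array at 20 d, and the difference was 0.29 ± 0.073 (adjusted p = 0.00241). At 3 d it had 196, 218, 225, 235 and 243 in nulls, against 208, 184, 206, 211 and 218 in wild type, and these groups overlapped. The 3 d difference of 0.11 ± 0.073 did not pass the test (adjusted p = 0.256). RpL24-like averaged 1870 ± 153 in 20 d nulls and 1790 ± 67.2 in 20 d wild type, a difference of 0.06 ± 0.053 that did not pass the test. Of the 4 genes whose groups did not overlap at 20 d, 2 were these assembly-factor homologues. RpL37-2, also among the 4, passed the filter through the 20 d wild-type arrays alone, so its lack of overlap was fixed by selection. At 3 d RpL7-like was the only gene of the 35 without overlap. Over all probe sets 33.1% did not overlap at 20 d and 24.3% at 3 d.

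**Figure D3:**
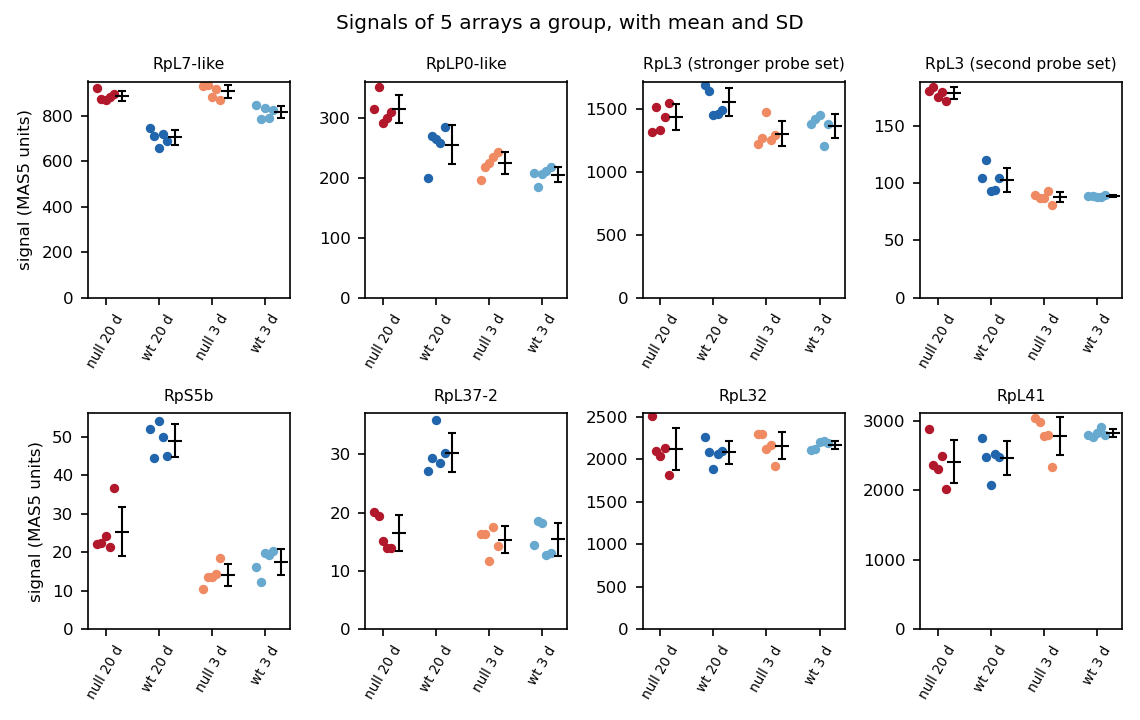
Signal (treated as MAS5 output) on each of 5 arrays a group for 7 genes, with both tested probe sets of RpL3. Black bars are the mean and SD, and every axis starts at 0. RpL7-like and the second RpL3 probe set separate the genotypes at 20 d, RpS5b and RpL37-2 are highest in 20 d wild type, and RpL32 and RpL41 overlap between genotypes.

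RpL3, a large-subunit protein near the peptidyl transferase centre, gave 2 different answers on its 2 tested probe sets. Its stronger probe set had 1310, 1510, 1330, 1430 and 1540 in 20 d nulls, against 1690, 1640, 1450, 1460 and 1490 in 20 d wild type. These groups overlapped, and the difference of -0.11 ± 0.060 did not pass the test (adjusted p = 0.13). The second probe set, looked at after its values were seen, had 181, 184, 176, 180 and 172 in 20 d nulls, against 105, 120, 92.9, 94.3 and 105 in 20 d wild type. Its 20 d groups lay far apart, with a difference of 0.71 ± 0.051 (adjusted p = 3.64e-11). At 3 d the second probe set had 89.5, 87.4, 87.1, 93.4 and 81.1 in nulls, against 88.9, 89.2, 88.2, 88 and 89.4 in wild type, a difference of -0.02 ± 0.051. Its change with age was 0.91 ± 0.051 in nulls and 0.19 ± 0.051 in wild type, and the test of the difference between these gave 0.72 ± 0.071 (adjusted p = 2.92e-08). The remaining RpL3 probe set lay near background, at 11.4 to 17 in 20 d nulls and 7.8 to 9.3 in 20 d wild type, and was not tested. The sources used here do not say which transcripts each probe set reads, so these values belong to the probe sets and not to RpL3 as a whole. The 2 bright probe sets of RpS29 did not part in this way, with differences of 0.01 ± 0.070 and 0.03 ± 0.065 at 20 d.

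With age, most ribosomal protein genes had signals slightly lower at 20 d as deposited, and the direction depended on how the arrays were scaled. In 20 d against 3 d wild type, 4 of the 35 genes were called higher and 7 lower, against 30.7% and 24.8% of all probe sets (55.6% in all). RpL37-2, among the 4, passed the filter through the 20 d wild-type arrays alone and is no evidence in that count. In 20 d against 3 d nulls, 2 were called higher and 5 lower, against 32.0% and 26.0% (58.0% in all). The median log2 change over the 35 genes was -0.055 in nulls and -0.067 in wild type, and over all probe sets it was 0.017 and 0.019. The 300 brightest other probe sets had lower medians still, at -0.172 in nulls and -0.167 in wild type. Relative to those bright probe sets, the mean of the structural genes was 0.160 to 0.254 over the 20 d null arrays against 0.084 to 0.135 over the 3 d null arrays. It was 0.175 to 0.254 in 20 d wild type against 0.089 to 0.120 in 3 d wild type, so on this measure the ages did not overlap in either genotype. Gene by gene, 2 genes lay higher at 20 d with no overlap and 0 lower in nulls, against 39.5% of all probe sets without overlap. In wild type 3 lay higher, with the selected RpL37-2 among them, and 7 lower with no overlap, against 44.3%.

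**Figure D4:**
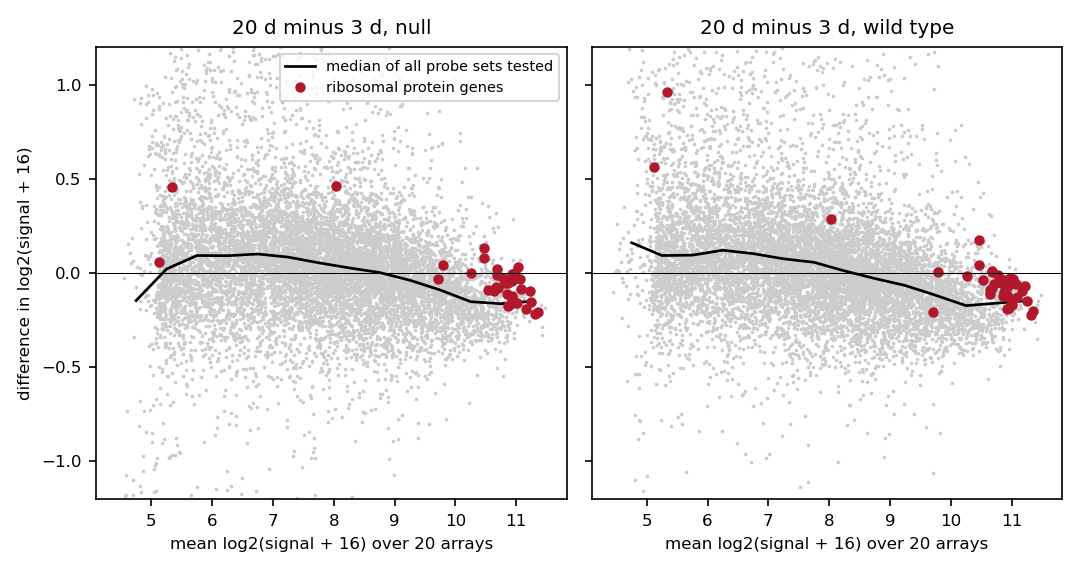
Change with age in log2(signal + 16), 20 d minus 3 d, against mean log2(signal + 16) over the 20 arrays, in nulls (left) and wild type (right); grey points are all probe sets tested, the line is their median by level, and red points are the 35 ribosomal protein genes. At the bright end the line runs below 0 and most red points lie on or above it; 271 probe sets in nulls and 250 in wild type lie beyond 1.2 in either direction and are not shown.

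Scaling turned the sign of these counts. Under quantile normalization 17 of the 35 genes were called higher and 0 lower in nulls, and 17 higher and 1 lower in wild type, with medians of 0.070 and 0.068. Of all probe sets, 26.8% were called higher and 30.4% lower in nulls, and 22.6% higher and 32.9% lower in wild type. With each array centred on its median, 2 were called higher and 18 lower in nulls and 3 higher and 16 lower in wild type, with medians of -0.146 and -0.165. Of all probe sets, 22.2% were called higher and 39.4% lower in nulls, and 20.7% higher and 39.5% lower in wild type. With each array centred on the 300 bright probe sets, an alternative chosen after seeing the data, 19 were called higher and 0 lower in nulls and 20 higher and 0 lower in wild type, with medians of 0.098 and 0.102. That last scaling moved the median of all probe sets to 0.169 in nulls and 0.188 in wild type, so the ribosomal proteins lay below the rest of the array there. Under it 49.6% of all probe sets were called higher and 9.68% lower in nulls, and 52.3% higher and 7.19% lower in wild type.

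RpL3 was higher at 20 d than at 3 d in wild type on its stronger probe set, with 1690, 1640, 1450, 1460 and 1490 at 20 d against 1380, 1420, 1450, 1200 and 1380 at 3 d. The change was 0.18 ± 0.060 (adjusted p = 0.0158). It was 0.32 under quantile normalization and 0.08, no longer called (adjusted p = 0.285), with median centring. RpL3 was also not called without repeat 1 of the 20 d wild type (0.14) or without repeat 4 of the 3 d wild type (0.13). In nulls the change was 0.13 ± 0.060 (adjusted p = 0.0669).

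Among the genes called lower with age as deposited were RpL15, RpL39, which lines the exit tunnel of the large subunit, RpL41, one of the shortest proteins known in eukaryotes, and the ubiquitin fusion RpS27A, each in both genotypes. RpL41 had 2880, 2360, 2300, 2490 and 2020 in 20 d nulls against 3040, 2980, 2780, 2790 and 2330 in 3 d nulls, which overlapped. In wild type it had 2750, 2470, 2070, 2520 and 2480 at 20 d against 2800, 2770, 2820, 2910 and 2800 at 3 d, which did not overlap. Its change was -0.21 ± 0.080 in nulls (adjusted p = 0.03) and -0.20 ± 0.080 in wild type (adjusted p = 0.0375).

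RpL15 changed by -0.21 ± 0.078 in nulls (adjusted p = 0.0228) and by -0.22 ± 0.078 in wild type (adjusted p = 0.0195). Its signals were 2970, 2350, 2260, 2290 and 2200 in 20 d nulls against 3150, 3140, 2600, 2780 and 2350 in 3 d nulls. RpL39 averaged 2300 ± 164 in 20 d nulls and 2570 ± 125 in 3 d nulls, a change of -0.16 ± 0.050 (adjusted p = 0.0103), and -0.15 ± 0.050 in wild type (adjusted p = 0.0156). RpS27A changed by -0.16 ± 0.053 in nulls (adjusted p = 0.0142) and by -0.17 ± 0.053 in wild type (adjusted p = 0.00917).

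RpL29 was called lower in nulls alone (-0.14 ± 0.057, adjusted p = 0.0429, against -0.13 ± 0.057 in wild type), and RpL10Ab in wild type alone (-0.11 ± 0.043, adjusted p = 0.0349, against -0.09 ± 0.043 in nulls). No structural gene was called in the test of the difference between the 2 ageing changes. RpL24-like was called lower in wild type (-0.19 ± 0.053, adjusted p = 0.00359), and in nulls it changed by -0.12 ± 0.053 (adjusted p = 0.0555). None of these calls of a lower signal held under quantile normalization, with values between -0.06 and 0.04.

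Several of these ageing calls also rested on single arrays. In nulls RpL29 was not called without any 1 of 9 arrays (repeats 2 to 5 of the 20 d nulls, 1, 2 and 4 of the 3 d nulls, 2 of the 20 d wild type and 5 of the 3 d wild type), at -0.14 to -0.11. RpL41 in nulls was not called without repeat 2, 3 or 5 at 20 d or repeat 1, 2 or 4 at 3 d (-0.21 to -0.15), and RpL15 without repeat 3, 4 or 5 at 20 d or repeat 1 or 2 at 3 d (-0.20 to -0.17). RpS27A in nulls was not called without repeat 5 at 20 d (-0.12). In wild type RpL41 was not called without repeat 2, 3 or 5 at 20 d or any 1 array at 3 d (-0.21 to -0.14), RpL10Ab without repeat 3 or 4 at 20 d or repeat 2, 3 or 4 at 3 d (-0.11 to -0.09), RpL15 without repeat 2 or 3 at 20 d (-0.20 and -0.19) and RpL39 without repeat 3 at 20 d (-0.11). Without repeat 1 of the 20 d nulls, 3 genes were called higher and 17 lower with age in nulls, and without repeat 5 of the 3 d nulls 2 higher and 15 lower.

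Both genes called higher with age in nulls also rose in wild type, and the first was the assembly-factor homologue RpLP0-like. It rose by 0.46 ± 0.073 in nulls (adjusted p = 1.1e-05) and by 0.29 ± 0.073 in wild type (adjusted p = 0.00203), with no overlap between ages in nulls. The difference between these changes was 0.17 ± 0.10 and did not pass the test (adjusted p = 0.292). RpL7-like ran the other way in wild type, where it fell by 0.21 on the log2 scale (SE 0.036, adjusted p = 2.77e-05) with no overlap between ages. In nulls its change was -0.03 ± 0.036 (adjusted p = 0.493), and the difference between the changes was 0.18 ± 0.050 (adjusted p = 0.0144). With centring on the bright probe sets that difference was 0.16 with an adjusted p of 0.0666, and the wild-type change was -0.04.

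The second was RpS5b, a duplicate gene known in Drosophila for expression in the ovary. It had 22.1, 22.4, 24.2, 21.3 and 36.7 in 20 d nulls, against 51.9, 44.5, 54, 49.9 and 44.9 in 20 d wild type. At 3 d it had 10.5, 13.4, 13.4, 14.3 and 18.5 in nulls, against 16, 12.1, 19.9, 19.2 and 20.2 in wild type. The 20 d wild-type arrays lay above all others, and the array medians were 19.1 to 25, and RpS5b lay above its array's median on 3 of the 5 arrays in 20 d nulls, 5 in 20 d wild type, 0 in 3 d nulls and 2 in 3 d wild type. RpL37-2 lay above it on the 5 arrays of the 20 d wild type alone, so it entered the test through the group where it is high, had to differ, and adds nothing to a count as evidence. RpS5b differed by -0.66 ± 0.090 between nulls and wild type at 20 d (adjusted p = 1.66e-06), and at 3 d by -0.16 ± 0.090 (adjusted p = 0.195). Under quantile normalization the 3 d difference was -0.27 and was called (adjusted p = 0.0208). With age it rose by 0.46 ± 0.090 in nulls and by 0.96 ± 0.090 in wild type, and the difference between these was -0.51 ± 0.13 (adjusted p = 0.00607).

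RpL37-2, the dim copy of RpL37-1, had 20.1, 19.5, 15.2, 14 and 13.9 in 20 d nulls, against 27.1, 29.4, 35.9, 28.6 and 30.3 in 20 d wild type. At 3 d it had 16.4, 16.4, 11.7, 17.6 and 14.2 in nulls, against 14.4, 18.5, 18.2, 12.8 and 13 in wild type. The 20 d wild-type arrays again stood above the rest, with a genotype difference of -0.51 ± 0.074 at 20 d, an ageing change of 0.56 ± 0.074 in wild type and a difference between the ageing changes of -0.50 ± 0.10. Since the filter selected RpL37-2 on that group, these 3 values are a description. Under quantile normalization the difference between ageing changes was -0.27 for RpL37-2, and for RpS5b it was -0.31 and not called (adjusted p = 0.0854). RpL37-1 did not follow its copy, with a genotype difference of 0.02 ± 0.10 at 20 d.

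Fat body, haemocyte and gonad markers were also summed, since both dim genes were highest in 20 d wild type. The summed signal of 9 fat body probe sets was 2630 to 2900 in 20 d nulls, 3510 to 3670 in 20 d wild type, 2230 to 2340 in 3 d nulls and 2580 to 2760 in 3 d wild type. Of 6 that were tested, 5 were called lower in nulls at 20 d, against 24.6% of all probe sets. That count was 3 under quantile normalization, 3 with median centring and 4 with bright centring. Fbp1, Fbp2 and Yp2 lay below the array's median in every group. Yp3, among the 5, averaged 12.2 in 20 d nulls and 18.1 in 3 d nulls, under the array medians. Its means were 58.4 in 20 d wild type and 36.4 in 3 d wild type. It thus passed the filter mainly through the wild-type arrays where it is high, and is no evidence in that count. The summed signal of 7 haemocyte probe sets was 1250 to 1360 in 20 d nulls, 1460 to 1540 in 20 d wild type, 986 to 1080 in 3 d nulls and 1000 to 1090 in 3 d wild type. Both sums were highest in 20 d wild type. Fat body sums also differed between genotypes at 3 d and with age in nulls. The 13 gonad marker genes summed to 405 to 495 in 20 d nulls, 411 to 463 in 20 d wild type, 501 to 595 in 3 d nulls and 383 to 492 in 3 d wild type, most of it from bol, whose brightest probe set averaged 392, 338, 487 and 376 in the same order of groups. Germline vas, bam, osk and otu lay below the array's median in every group. Germline aub averaged 6.77 ± 1.07 in 20 d nulls and 28.7 ± 1.27 in 20 d wild type, a difference of -0.97 ± 0.057. At 3 d it averaged 5.4 ± 1.55 in nulls and 23.4 ± 2.07 in wild type, a difference of -0.88 ± 0.057. In nulls aub lay under the array medians, so it passed the filter through the wild-type arrays where it is high. Its differences were thus fixed by selection and are a description. Of the 3 gonad markers tested, bol was called higher in nulls at 20 d (0.20 ± 0.075, adjusted p = 0.0338, limma). It was also called higher at 3 d (0.36 ± 0.075, adjusted p = 0.000546). The marker piwi was called for genotype at neither age, with means of 22.1 in 20 d nulls and 23.3 in 20 d wild type. The part of any of these tissues in the RpS5b and RpL37-2 values was not tested.

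The 6 genes below the filter were RpL10Aa, RpL22-like, RpS10a, RpS19b, RpS28-like and RpS28a. Their signals averaged between 0.632 and 14.3 in every group, under the array medians, so little can be read from them. Highest of these was RpS10a in 20 d nulls, at 15.4, 13.1, 15.4, 16.7 and 10.8, against 7.59, 12.5, 10.2, 5.44 and 9.19 in 20 d wild type. With no filter, RpS10a and RpS28a were called higher in nulls at 20 d. Their bright partners RpL10Ab and RpS28b had genotype differences of 0.05 ± 0.043 and 0.03 ± 0.061 at 20 d.

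Over all 35 genes, the test of the difference between ageing in nulls and in wild type called 1 gene higher (RpL7-like) and 2 lower (RpL37-2 and RpS5b), against 7.61% and 9.38% of all probe sets (17.0% in all). RpL37-2 was selected by the filter on the 20 d wild-type arrays and is no evidence in that count. The median was 0.009, against 0.006 over all probe sets. By chromosome, 14 of the 41 genes lie on the arm that carries mir-34, and 10 of these were tested. Of the 10, 1 (RpS5b) was called for genotype at either age, against 3 of 25 tested on other arms. Among the 3 is RpL37-2, which is no evidence in this count either. Of all probe sets, 45.5% were called for genotype at 20 d and 33.8% at 3 d, so both counts are low beside those shares. RpL3 also lies on the arm of mir-34, and its second probe set, outside these counts, was called at 20 d.

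Other parts of the translation machinery were counted in the same way. Of 49 ribosome biogenesis genes tested, 38 were called higher and 2 lower at 20 d in nulls, and 30 higher and 4 lower in wild type, where all probe sets gave 32.0% and 26.0% in nulls and 30.7% and 24.8% in wild type. Their median change was 0.28 in nulls and 0.19 in wild type. Under quantile normalization the counts were 30 higher and 3 lower in nulls and 13 higher and 8 lower in wild type, against 26.8% and 30.4% of all probe sets in nulls and 22.6% and 32.9% in wild type, so the wild-type share of higher calls was then near that of all probe sets. With bright centring they were 44 higher and 0 lower in nulls and 42 higher and 0 lower in wild type, where 49.6% and 52.3% of all probe sets were called higher. Nop60B, the pseudouridine synthase of the box H/ACA particles that modify ribosomal RNA, averaged 289 ± 17.8 in 20 d nulls against 164 ± 4.17 in 3 d nulls, and 218 ± 5.11 in 20 d wild type against 154 ± 7.13 in 3 d wild type. Its change was 0.76 ± 0.041 in nulls (adjusted p = 1.05e-13) and 0.46 ± 0.041 in wild type (adjusted p = 1.26e-09). Between genotypes, 18 of the 49 were called higher in nulls and 3 lower at 20 d, and 1 higher and 11 lower at 3 d. The shares over all probe sets were 20.9% and 24.6% at 20 d and 15.4% and 18.4% at 3 d, so the 11 lower at 3 d were near the background. With bright centring the 20 d counts were 7 higher and 3 lower, against 13.4% and 22.4%. Fib, the fibrillarin methyltransferase of the nucleolus, averaged 152 ± 11.5 in 20 d nulls and 119 ± 10.9 in 20 d wild type (0.32 ± 0.058, adjusted p = 8.01e-05). The test of the difference between ageing changes called 10 of the 49 higher and 1 lower, against 7.61% and 9.38% of all probe sets, and 4 higher and 0 lower with bright centring, against 3.13% and 6.87%.

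**Figure D5:**
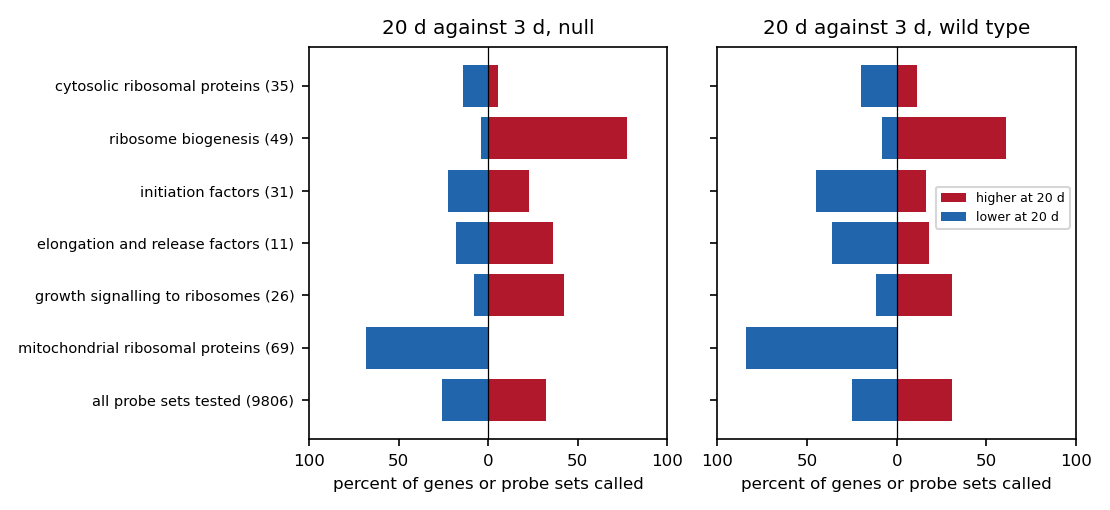
Percent of the genes of each list called higher (red) and lower (blue) at 20 d against 3 d, in nulls (left) and wild type (right), with the number tested in brackets and all probe sets in the bottom bar. Biogenesis genes were mostly called higher and mitochondrial ribosomal proteins mostly lower, while few cytosolic ribosomal proteins were called; the counts are those of signals as deposited.

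The mitochondrial ribosomal proteins, which build the separate ribosome of that organelle, had lower signals at 20 d. Of 69 tested, 0 were called higher and 47 lower with age in nulls, and 0 higher and 58 lower in wild type, with medians of -0.18 and -0.22, against 26.0% and 24.8% of all probe sets called lower. Under quantile normalization the counts were 1 higher and 50 lower in nulls and 0 higher and 58 lower in wild type. With bright centring they were 8 higher and 15 lower in nulls and 3 higher and 20 lower in wild type, against 9.68% and 7.19% of all probe sets called lower. Between genotypes at 20 d, 21 were called higher in nulls and 6 lower, against 20.9% and 24.6% of all probe sets, and mRpL50 averaged 602 ± 21.5 in 20 d nulls and 368 ± 5.08 in 20 d wild type.

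Of 31 initiation factors tested, 7 were called higher and 7 lower with age in nulls, and 5 higher and 14 lower in wild type, against 32.0% and 26.0% of all probe sets in nulls and 30.7% and 24.8% in wild type. With bright centring these became 18 higher and 1 lower in nulls and 13 higher and 1 lower in wild type, against 49.6% and 9.68% in nulls and 52.3% and 7.19% in wild type. Between genotypes, 6 of the 31 were called higher in nulls and 2 lower at 20 d, against 20.9% and 24.6% of all probe sets. At 3 d, 1 was called higher and 7 lower, against 15.4% and 18.4%. The largest called difference at both ages was that of eIF3l, at -0.40 ± 0.036 at 20 d and -0.38 ± 0.036 at 3 d. eIF6, which keeps the new large subunit from joining too early, averaged 254 ± 17.2 in 20 d nulls and 204 ± 13 in 20 d wild type. The eIF6 difference was 0.29 ± 0.054 (adjusted p = 9.59e-05, limma). Of 11 elongation and release factors, 4 were called higher and 2 lower with age in nulls, and 2 higher and 4 lower in wild type, and with bright centring 8 higher in nulls and 7 in wild type. Among 26 growth signalling genes, 11 were called higher and 2 lower with age in nulls, and 8 higher and 3 lower in wild type. For age, these 2 lists read against the same shares of all probe sets as the initiation factors. S6k, the kinase of ribosomal protein S6 downstream of Tor, averaged 754 ± 106 in 20 d nulls and 548 ± 35.2 in 20 d wild type, a difference of 0.44 ± 0.072 (adjusted p = 2.37e-05). At 3 d the S6k difference was 0.47 ± 0.072 (adjusted p = 1.31e-05), with 691 ± 29.4 in nulls and 494 ± 23.1 in wild type. InR went the other way and had the largest called difference of this list, at -0.76 ± 0.11 at 20 d and -0.95 ± 0.11 at 3 d. Of the 26 growth signalling genes, 7 were called higher in nulls and 3 lower at 20 d, against 20.9% and 24.6% of all probe sets. At 3 d, 2 were called higher and 4 lower, against 15.4% and 18.4%.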

How the data were processed

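Total RNA from dissected brains was measured on 20 Affymetrix Drosophila 2 arrays, 5 in each of 4 groups taken from the labels. The submitters' processing notes name both MAS5 and GCRMA, and the deposited intensity values were treated as MAS5 signals from their form. They were linear, ran over 0.0116 to 4060 and had a 2% trimmed mean of 150 on every array. Array parameters and build are not given in the sources used here. Precision is limited by having 5 arrays a group.

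Of 18952 probe sets 183 controls were left out. Values entered as log2(signal + 16), after a filter that kept probe sets above their array's median on at least 5 arrays. 1 linear model with 4 group means was fitted to all 20 arrays (limma 3.58.1 under R 4.3.3, with trend and robust eBayes), with Benjamini-Hochberg adjustment per comparison, and was tested on simulated data. Genes were named through the platform annotation. Probe sets naming several genes, 3 of which include a ribosomal protein gene, were left out, and 14 of the 41 genes are read by probe sets whose names end in _s_at, which can share sequence with other transcripts. No 2 arrays held identical values.

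The genes and lists were chosen with earlier results of these data known. Named were all the ribosomal protein genes, with values on every array for the 4 highest and 4 lowest called in a comparison, those called in the interaction and duplicates, and in each list the 3 called genes of largest change, of which a part is printed. The alternatives were quantile normalization, median centring, pseudocounts of 1 and 50, no filter, a filter on all 20 arrays, plain eBayes settings, the repeat number as a block, each array left out, only the groups compared, and every probe set of a gene. Centring on 300 bright probe sets was added after the data were seen.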

Additional observations from a re-analysis of the deposited data

Results flagged for a closer look

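Of 140 screens of 5 arrays each (35 genes in 4 groups), 13 had a highest or lowest array set apart from the rest by Dixon's test. Chance alone gives about 1 in 20 for separate screens. The 35 genes share the same arrays and moved together, so these screens were not separate and the count cannot be weighed against that rate. Repeat 1 of the 20 d nulls was the high array for RpL15 (2970, next 2350), RpL29 (2170, next 1880), RpL34a (947, next 881), RpL37A (1840, next 1630) and RpS20 (2460, next 2080). Repeat 5 of the same group was high for RpS5b (36.7, next 24.2). In 20 d wild type, repeat 1 was high for RpL37-1 (2020, next 1730) and repeat 3 low for RpS20 (1810, next 2030). In 3 d nulls, repeat 3 was high for RpL3 (1470, next 1290) and repeat 5 low for RpL28 (1440, next 1690). In 3 d wild type, repeat 4 was low for RpL3 (1200, next 1380), repeat 1 low for RpL37-1 (1570, next 1910) and repeat 2 low for RpS21 (1470, next 1560).

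The change with age differed between nulls and wild type for 3 genes by the interaction test (limma, Benjamini-Hochberg). It was 0.18 for RpL7-like (adjusted p = 0.0144) and -0.51 for RpS5b (adjusted p = 0.00607). It was -0.50 for RpL37-2, which passed the filter through the 20 d wild-type arrays where it is high, so that its difference was fixed by selection and is a description.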

How the results depend on the processing

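Counts of genes called out of 35 moved with the scaling. For nulls against wild type at 3 d the count was 1 as deposited, 5 under quantile normalization and 3 with centring on bright probe sets. At 20 d it was 4, 7 under quantile normalization, and 2 of 33 with the filter on all 20 arrays, which leaves out both dim genes. For age it was 7 in nulls and 11 in wild type, against 17 and 18 under quantile normalization, 20 and 19 with median centring and 19 and 20 with bright centring. In nulls it was 3 with only the groups compared. The interaction count of 3 was 1 under quantile normalization and 1 with the filter on all 20 arrays. The cause was not tested. Called values turned sign under quantile normalization for RpL10Ab in wild type (0.04) and, in nulls, for RpL29 (0.00), RpL39 (0.02) and RpL41 (0.01). With bright centring they turned for RpL10Ab (0.06) and RpL39 (0.02) in wild type and RpL29 in nulls (0.01). Leaving out each array in turn gave 1 to 2 calls for genotype at 3 d, 4 to 4 at 20 d, 3 to 20 for age in nulls (20 without repeat 1 of the 20 d nulls, 17 without repeat 5 of the 3 d nulls, 3 without repeat 5 of the 20 d nulls, 4 without repeat 1 or 2 of the 3 d nulls), 7 to 15 for age in wild type (7 without repeat 3 of the 20 d wild type) and 3 to 3 for the interaction. With pseudocounts of 1 and 50 all 26 calls stood, and values of the dim genes moved: at 20 d the genotype difference was -0.95 and -0.40 for RpS5b (-0.66 as reported) and -0.84 and -0.27 for RpL37-2 (-0.51).

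Same-numbered arrays of different groups had correlations of their deviations of -0.184 to 0.554 (median 0.11), with 16 of 30 over 0.1. Arrays of different numbers had -0.588 to 0.398 (median -0.0316), with 30 of 120 over 0.1, so same-numbered arrays were somewhat more alike. Of 20 arrays, 7 correlated best with their own number. These values do not settle whether the numbers are pairs, and the main fit did not use them. With the repeat number as a block, 4 genes were called for genotype at 20 d, 1 at 3 d, 9 for age in nulls, 14 for age in wild type and 3 for the interaction, and no called value was lost.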
